A study of Arabidopsis thaliana with 18 samples.

Results

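The comparison set 3 Affymetrix ATH1 arrays of Arabidopsis thaliana accession Tsu-1 treated with 0.3 mM salicylic acid (SA) in 0.02% silwet, arrays 106, 107 and 108, against 3 arrays of Tsu-1 given 0.02% silwet alone, arrays 97, 98 and 99. They are 6 of the 18 arrays of a study with 9 arrays per treatment, in which each treatment has 3 runs of consecutive array numbers, each holding replicate numbers 1, 2 and 3; a run in both treatments is called a triplet here, and these are the arrays of the third. Silwet, a wetting agent for sprays, was in every group, and the arrays with silwet alone are the control. Arrays of the same replicate number were paired, 106 with 97, 107 with 98 and 108 with 99. The labels do not say what separates the triplets, and they give no tissue, age or time after treatment. Whether the arrays of a treatment came from separate plants is not said either, so the spread behind each p-value is one between arrays and can be technical.

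SA is the plant hormone of defence against pathogens that feed on living tissue. Its perception frees transcriptional co-activators that, with TGA factors, switch on pathogenesis-related and WRKY genes, and plants dispose of SA by adding sugars or a methyl group to it. SA signalling and jasmonate signalling are known to act against each other in leaves, with plant defensins such as PDF1.2 as the usual jasmonate and ethylene readout. Here each value is a log2 signal, 1 unit being a doubling, and each difference is SA minus silwet, the mean of 3 pairs with the SE of the model. SDs are over 3 arrays of a treatment throughout.

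Array 97 had the lowest mean correlation of the 6 arrays with the 17 others of the series, 0.915, against 0.930 to 0.937 for SA arrays 106 to 108, 0.937 for silwet array 98 and 0.932 for silwet array 99. Within the silwet arrays, log2 signals correlated at 0.893 between 97 and 98, 0.939 between 97 and 99 and 0.942 between 98 and 99. SA arrays 106, 107 and 108 correlated with each other at 0.948 to 0.971. The highest correlation of the triplet, 0.981, was between SA array 107 and silwet array 98. The SD of the differences over all probe sets was 0.868 for the pair of array 97, 0.356 for the pair of array 98 and 0.561 for the pair of array 99. Over all probe sets, the pair differences of arrays 97 and 99 correlated at 0.521, and those of array 98 with the other pairs at 0.016 and 0.028. The ratio of 3 prime to 5 prime signal of the actin control, a sign of RNA integrity, was 1.75 ± 0.28 log2 units on SA arrays and 2.22 ± 0.21 on silwet arrays (exact permutation test, two-sided p = 0.2). That of GAPDH was 0.089 ± 0.20 on SA arrays and 0.26 ± 0.25 on silwet arrays (exact permutation test, two-sided p = 0.5), and 3 against 3 arrays cannot give a p below 0.1. Of the markers that could tell the tissue, 9 nuclear photosynthesis genes averaged 10.4, 10.5 and 10.4 on SA arrays 106 to 108 and 10.4, 10.5 and 10.4 on silwet arrays 97 to 99. The root marker PYK10 averaged 7.06 ± 0.29 on SA arrays and 7.09 ± 0.48 on silwet arrays. No flower marker had a named probe set.

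No probe set passed the test in this triplet with all arrays weighted equally. Of 15922 probe sets tested with limma, 0 were called higher and 0 lower after SA at an adjusted p of 0.05 (0%), where the smallest adjusted p was 0.343. With no adjustment, 2293 probe sets (14.4%) had p under 0.05, 1382 measured higher (8.68%) and 911 lower (5.72%). With array weights, limma called 4993 probe sets, 2986 of them higher, at pair weights of 0.421 for array 97, 0.509 for 98 and 3.92 for 99, and the cause of these calls was not tested. After quantile normalization the counts with p under 0.05 were 1034 higher and 1203 lower. Probe sets with the same sign in all 3 pairs numbered 3133 higher (19.7%) and 2610 lower (16.4%). All 3 SA arrays lay above all 3 silwet arrays for 734 probe sets (4.61%) and below them for 730 (4.58%). Without array 97, in a model with no pairs, 477 had an unadjusted p under 0.05 (3%) and 0 were called, against 1112 (6.98%) and 0 with it in that model. Leaving out whole pairs, the unadjusted count was 552 without arrays 106 and 97, 4130 without 107 and 98, and 974 without 108 and 99, and the called count was 0, 1 and 0. In the model with no pairs it was 3639 without array 98, 469 without 99, 505 without 106, 619 without 107 and 1271 without 108, with 1 called without array 98 and 0 without each of the others. Simulated data had 200 of 15922 probe sets changed in this triplet. The same test recovered 0% of changes of 1 unit, 80% of changes of 2 units and 94% of changes of 3 units. These rates hold for that number of changed probe sets only. The simulated noise was independent between arrays and between probe sets, with no pair effect, so the rates are not the power on these arrays.

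Since none was called, the genes below were chosen by their unadjusted p, their sign in the 3 pairs and their size, and every one with an unadjusted p under 0.05 had an adjusted p of 0.343. Values of such genes are given as measured. None of them passed the test with equal weights. With array weights 56 of 78 named genes were called, against 4993 of all 15922 probe sets tested. The choice of named genes by p and size favours such calls. In that fit the pair of array 99 had a weight of 3.92, against 0.421 for that of array 97 and 0.509 for that of array 98.

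The marker genes of SA itself did not move one way. Of 30 genes listed as SA-responsive, 4 had a named and tested probe set, and 2 measured higher and 2 lower, with a median difference of -0.04 against 0.04 over all tested probe sets. With the lowest 50% of probe sets left out, GRX480 and WRKY53 were its only tested members and its median was -0.85. PR1, PR2, PR5 and WRKY70 had no named probe set. GRX480, a glutaredoxin that binds TGA factors and is an early SA-induced gene, had log2 signals of 6.20, 6.48 and 7.23 on SA arrays 106, 107 and 108, against 7.86, 7.21 and 8.26 on silwet arrays 97, 98 and 99. Each SA array lay below its own silwet partner, while array 108 reached just above array 98. The difference was -1.14 (SE 0.20, unadjusted p = 0.00016), and -1.10 without array 97. WRKY53, a transcription factor of defence and leaf senescence, had 6.13, 5.46 and 6.05 on SA arrays and 6.61, 6.38 and 6.34 on silwet arrays. All its SA arrays were below all its silwet arrays, with a difference of -0.56 (SE 0.16, unadjusted p = 0.0055).

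AT3G28510, a gene of the AAA-type ATPases, ran the other way. It had 3.98, 5.13 and 4.35 on SA arrays, against -0.58, 3.6 and 3.66 on silwet arrays. The groups did not overlap, and the value of array 97 was far below the rest. The difference was 2.26 (SE 0.78) with array 97 and 0.86 (SE 0.81) without it. The gene was dim, with means of 4.48 on SA arrays and 2.23 on silwet arrays, below the lowest array median of 4.70. Its relative AT3G28540 had 5.02, 5.18 and 4.85 on SA arrays and 4.3, 4.54 and 4.74 on silwet arrays, again without overlap, and a difference of 0.49 (SE 0.28, unadjusted p = 0.11).

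Tested genes of the lists of SA synthesis and signalling and of SA modification and detoxification mostly measured lower. BSMT1, the methyltransferase that makes methyl salicylate, had the lowest difference of the named genes. Its signals were 3.14, 3.16 and 4.26 on SA arrays and 5.88, 4.56 and 5.41 on silwet arrays, with no overlap. The difference was -1.77 (SE 0.46), and -1.47 without array 97. AT5G52810, a locus of the list of SA synthesis and signalling genes, had 7.53, 7.63 and 8.26 on SA arrays against 8.22, 8.09 and 8.90 on silwet arrays, lower in each pair and by 0.45 to 0.69 units, with a difference of -0.59 (SE 0.21). The only other tested gene of that list of 17 was SAG101, a partner of the immune regulator EDS1, at 0.30, -0.24 and -0.36 in the 3 pairs. GSTU25, a glutathione transferase of the tau class, had 3.52, 3.83 and 3.65 on SA arrays and 4.83, 4.24 and 4.08 on silwet arrays, with no overlap and a difference of -0.72 (SE 0.27). UGT76B1, a glucosyltransferase that acts on SA, scattered widely. It had 2.07, 4.40 and 5.81 on SA arrays and 2.74, 4.17 and 5.68 on silwet arrays. Its level varied with the replicate number far more than with the treatment, and the difference was -0.10 (SE 0.38, unadjusted p = 0.80). Of 20 genes listed for SA modification and detoxification, 4 were tested, 1 measured higher and 3 lower, and the median was -0.41. The higher one was UGT73B5, with a difference of 0.23 (SE 0.29).

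Most jasmonate and defensin genes also measured lower. PDF1.2, the plant defensin used as a marker of jasmonate and ethylene signalling, had 8.54, 9.65 and 9.15 on SA arrays and 11.28, 10.21 and 9.94 on silwet arrays. All SA arrays lay below all silwet arrays, and the difference was -1.36 (SE 0.46), or -0.96 without array 97. PDF1.2b gave -1.45 (SE 0.50). Its probe set is of the kind that can bind near-identical copies, so it may partly read PDF1.2 and is not a separate measurement. PDF1.4, another defensin, had 3.83, 5.23 and 5.64 on SA arrays and 5.07, 5.95 and 7.0 on silwet arrays, lower in each pair, with a difference of -1.11 (SE 0.30) that became -1.58 without array 97. These were the 3 tested members of the 5 named defensins, and all 3 had an unadjusted p under 0.05, against 5.72% of all probe sets in that direction. Their median locus length was 683 bases, and among named genes with loci of 78 to 1523 bases that share was 13.0%. All 3 are among the 12 lowest differences given below, chosen partly by p and sign, so their count is no support for a change.

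Over the 6 tested genes of the jasmonate and ethylene list, out of 31 listed, 5 measured lower and 1 higher, with a median of -0.73 that was -0.23 without array 97 and 0.14 with array weights. PDF1.2 and PDF1.2b are among the lower ones, so this list is not separate from the defensins above. The median was -1.68 in the pair of array 97, -0.66 in the pair of array 98 and 0.36 in the pair of array 99, so the pairs did not share a direction. ORA47, a jasmonate-responsive factor of the AP2/ERF family, differed by -0.57 (SE 0.25) and by -0.07 without array 97. THI2.1, a thionin induced by jasmonate, had 3.66, 4.25 and 3.96 on SA arrays and 5.88, 5.93 and 2.74 on silwet arrays. Silwet array 99 was the lowest of all 6 for this gene, while the other silwet arrays were the highest, and the difference was -0.90 (SE 0.71, unadjusted p = 0.24).

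**Figure D1:**
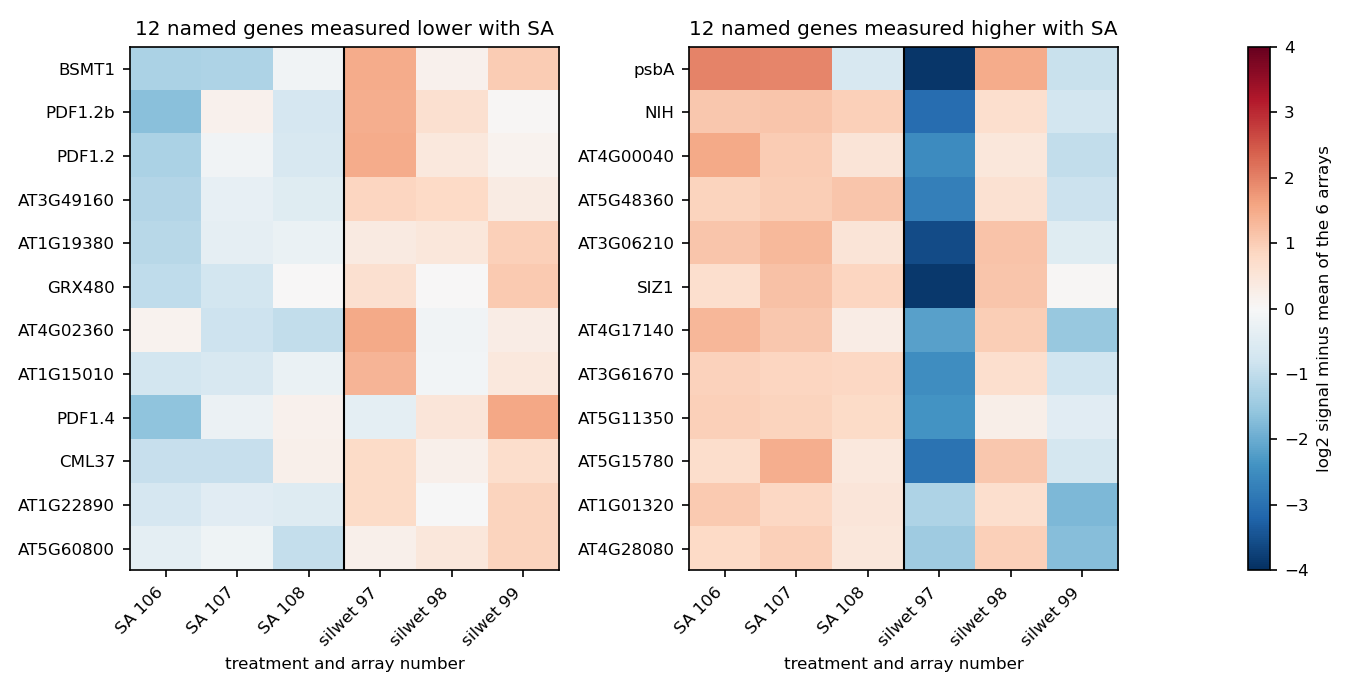
Log2 signal of each named gene minus its mean over the 6 arrays (colour), for the 12 lowest and the 12 highest differences (rows), on SA arrays 106 to 108 and silwet arrays 97 to 99 (columns). The lower genes were higher on all silwet arrays or on most of them, while the higher genes were low on silwet arrays 97 and 99 and not on silwet array 98.

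The 12 named genes with the lowest differences ran from -1.77 to -1.02. They were BSMT1, PDF1.2b, PDF1.2, AT3G49160, AT1G19380, GRX480, AT4G02360, AT1G15010, PDF1.4, CML37, AT1G22890 and AT5G60800. AT1G19380 had the lowest unadjusted p of all probe sets, 2.9e-05. Its signals were 5.69, 6.43 and 6.53 on SA arrays and 7.15, 7.27 and 7.75 on silwet arrays, with no overlap, and the difference was -1.17 (SE 0.17) with array 97 and -1.29 without it. AT3G49160 had 3.03, 3.85 and 3.72 on SA arrays and 5.06, 4.99 and 4.51 on silwet arrays. Its groups did not overlap either, and the difference was -1.32 (SE 0.33). Of the 12, 7 had no overlap between the groups, against 4.58% of all probe sets with SA below silwet, a count that the choice by size and sign favours. All 12 kept their sign without array 97, where they ran from -1.58 to -0.65, and also without both arrays 97 and 99, where they ran from -1.46 to -0.43. That last fit sets silwet array 98 alone against the 3 SA arrays with no pairs, so it leaves the level of each replicate number in the difference. Requiring the same sign in all 3 pairs was part of how they were chosen, so that count is no support for a change.

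The 12 highest differences ran from 1.46 to 2.19 and behaved otherwise. They were psbA, NIH, AT4G00040, AT5G48360, AT3G06210, SIZ1, AT4G17140, AT3G61670, AT5G11350, AT5G15780, AT1G01320 and AT4G28080. psbA, the plastid gene of the D1 protein of photosystem II, had 10.78, 10.73 and 8.15 on SA arrays and 4.90, 10.28 and 7.90 on silwet arrays. NIH, a nuclear DEIH-box helicase, had 5.62, 5.65 and 5.49 on SA arrays and 1.5, 5.22 and 3.81 on silwet arrays. For SIZ1, the SUMO ligase that restrains SA accumulation, the values were 5.04, 5.54 and 5.24 on SA arrays and 0.49, 5.47 and 4.42 on silwet arrays. In each, array 97 held the lowest value of the 6 and array 98 lay close to the SA arrays. Over the 12 genes the median difference was 3.64 in the pair of array 97, 0.28 in the pair of array 98 and 1.56 in the pair of array 99. All 12 kept their sign without array 97, at 0.33 to 1.34, and 6 of 12 without arrays 97 and 99, at -0.39 to 0.62. Other probe sets of 3 of these genes gave smaller values or another sign. SIZ1 had 0.67 (SE 0.38) on a brighter probe set, AT1G01320 had 0.78 (SE 0.35), and AT4G17140 had 1.01 (SE 0.56) and -0.44 (SE 0.29).

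The length of the gene locus, introns included, moved with these differences. Lengths came from the RefSeq table of TAIR10.1 and were known for 8707 of the named genes tested, 99.6% of them. The median locus length was 842 bases for the 12 lowest and 3850 for the 12 highest, against 2310 over the named genes. Spearman's rho between length and difference, across genes, was 0.543 in the pair of array 97, -0.064 in the pair of array 98 and 0.422 in the pair of array 99. Genes are not independent replicates, and the points of a pair share 2 arrays. With the genes in 5 classes of equal size by length, the longest class had a median difference of 0.39 and the shortest class -0.22. In the longest class 17.4% of genes measured higher at an unadjusted p under 0.05 and 0.402% lower, against 2.12% higher and 13.0% lower in the shortest. On array 97 the longest class lay 0.59 units below and the shortest 0.40 units above the gene means of the series, in medians, and on array 99 they lay 0.39 below and 0.23 above. On SA arrays 106, 107 and 108 the longest class lay at 0.25, 0.18 and -0.002. The same rho in the pairs of replicate numbers 1, 2 and 3 was -0.447, 0.068 and 0.153 in the first triplet and -0.407, -0.046 and -0.080 in the second. The part of length, and of what moves with it, in the differences of single genes was not tested.

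**Figure D2:**
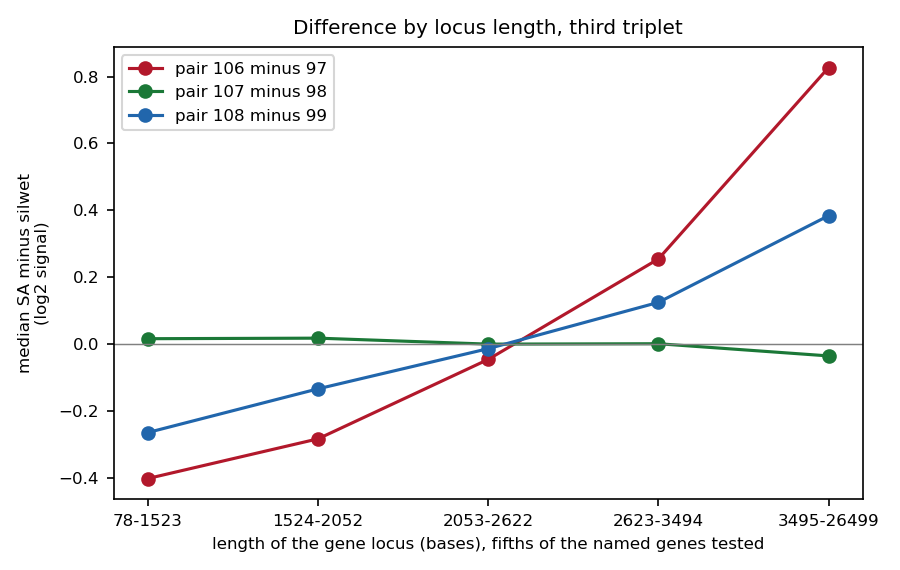
Median SA minus silwet difference in log2 signal (vertical axis) of named genes in 5 classes of locus length in bases (horizontal axis), with a line for each pair of the third triplet. The pairs of arrays 97 and 99 climb from -0.40 and -0.26 in the shortest class to 0.83 and 0.38 in the longest, and the pair of array 98 stays between -0.04 and 0.02.

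Plastid genes measured higher mainly in the pair of array 97. The plastid genome encodes core subunits of the photosystems and part of the machinery that expresses them. Of its 69 tested genes, 50 measured higher and 19 lower, 16 of them higher at an unadjusted p under 0.05 (23.2%, against 8.68% of all probe sets) and 0 lower. Their median difference was 0.33, with 0.85 in the pair of array 97, 0.01 in the pair of array 98 and -0.04 in the pair of array 99. Without array 97 the median was -0.001, and without arrays 97 and 99 it was -0.29. ycf3, an assembly factor of photosystem I, had 6.99, 7.82 and 6.59 on SA arrays and 5.15, 7.71 and 4.72 on silwet arrays. rpl14, a ribosomal protein gene of the plastid, had 8.40, 9.10 and 7.32 on SA arrays and 5.87, 9.03 and 5.57 on silwet arrays. Array 98 was as high as array 107 for both. Among the 45 plastid photosynthesis genes the median was 0.26, with 1.02, 0.004 and -0.09 in the pairs of arrays 97, 98 and 99. Among the 21 plastid gene expression genes the median was 0.56, with 0.60, 0.07 and 0.34, so these were also higher in the pair of array 99. The 9 nuclear photosynthesis genes, the antenna proteins LHCB4.1 to LHCB4.3 and rubisco activase among them, had a median of 0.08, with 5 higher, 4 lower and 0 at an unadjusted p under 0.05 in either direction.

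Auxin genes measured higher in 4 of 5 tested cases, of 19 listed, with a median of 0.74 that was 0.44 without array 97. GH3.3, an enzyme that conjugates auxin to amino acids, had 5.74, 7.29 and 6.89 on SA arrays and 6.29, 5.67 and 4.86 on silwet arrays. It measured lower in the pair of array 97 and higher in the others, and the difference was 1.03 (SE 0.57, unadjusted p = 0.099). WES1, a related enzyme that can also act on SA, was higher in each pair with a difference of 0.87 (SE 0.34).

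Among genes of secretory protein folding, 8 of 23 were tested, 4 measured higher and 4 lower, and the 4 lower ones were lower in every pair. BZIP60, the transcription factor of the unfolded protein response, had 7.94, 7.86 and 8.34 on SA arrays and 8.88, 8.08 and 9.11 on silwet arrays. ATERDJ3B, a co-chaperone of the endoplasmic reticulum, had 8.35, 8.47 and 9.40 on SA arrays and 8.59, 9.16 and 9.75 on silwet arrays. The differences were -0.64 (SE 0.21) and -0.42 (SE 0.16), and without array 97 they were -0.55 and -0.71. The list median was -0.09.

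Most calcium sensors and sugar transporters tested measured lower. CML37, a calmodulin-like protein of the wound and jasmonate responses, had 3.23, 3.25 and 4.37 on SA arrays and 4.92, 4.36 and 4.87 on silwet arrays. The groups overlapped by a narrow margin, and the difference was -1.10 (SE 0.23, unadjusted p = 0.00064). CML38 differed by -0.75 (SE 0.23). Of the 5 tested receptor kinases and calcium sensors, of 22 listed, 4 measured lower, with a median of -0.31 that was -0.58 without array 97 and 0.058 without array 99. Of 6 SWEET sugar transporters tested, of 7 listed, 5 measured lower and 4 were lower in every pair, with a median of -0.59. SWEET17, a fructose carrier of the vacuole membrane, had 8.02, 7.32 and 7.45 on SA arrays and 8.77, 7.59 and 8.72 on silwet arrays. Its difference was -0.76 (SE 0.19), with -0.28 in the pair of array 98, and without arrays 97 and 99 and with no pairs it was 6.95e-05.

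Other lists held genes of either sign. TUB1, TUB5 and TUB6, beta-tubulins of the microtubules, measured 0.54 (SE 0.17), 0.67 (SE 0.21) and 0.61 (SE 0.26) higher. For TUB6 the signals were 8.58, 8.53 and 8.46 on SA arrays and 7.69, 8.18 and 7.86 on silwet arrays, with no overlap. The 8 tested genes of cell division and tubulin, of 20 listed, had a median of 0.37, which was 0.18 without array 97 and 0.013 without arrays 97 and 99. GAMMA-VPE, a vacuolar processing protease that is active in senescing leaves, was among the steadiest. It had 10.57, 10.47 and 10.50 on SA arrays and 10.08, 10.18 and 10.16 on silwet arrays, with a difference of 0.37 (SE 0.14) and 0.34 without array 97. COR47, a dehydrin of cold and drought, had 11.23, 10.35 and 10.47 on SA arrays and 10.55, 9.86 and 10.30 on silwet arrays, higher in every pair, with a difference of 0.45 (SE 0.14). GI, a clock-associated gene with a long locus of 6040 bases, measured 1.44 higher (SE 0.53), with -0.20 in the pair of array 98.

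Enzyme families leaned little. Of 30 tested UDP-glycosyltransferases, which add sugars to small molecules, 23 measured higher and 7 lower, with a median of 0.19 that was 0.03 without array 97. UGT73B1 had 5.81, 5.83 and 5.51 on SA arrays and 5.09, 5.18 and 4.81 on silwet arrays, with no overlap and a difference of 0.69 (SE 0.26). Of 16 cytochromes P450, 11 measured higher and 5 lower, with a median of 0.15. CYP71B23 was lower, at 7.96, 7.64 and 7.74 on SA arrays and 8.39, 8.16 and 8.13 on silwet arrays, with no overlap and a difference of -0.44 (SE 0.17). The 12 glutathione transferases had a median of -0.05, the 6 WRKY factors -0.03, the 15 wall-loosening enzymes 0.02 and the 10 beta-glucosidases 0.10. The flavonoid and phenylpropanoid list held 4 tested genes of 18, and all 4 measured lower. Their median was 0.50 in the pair of array 97, -1.35 in the pair of array 98 and 0.05 in the pair of array 99.

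**Figure D3:**
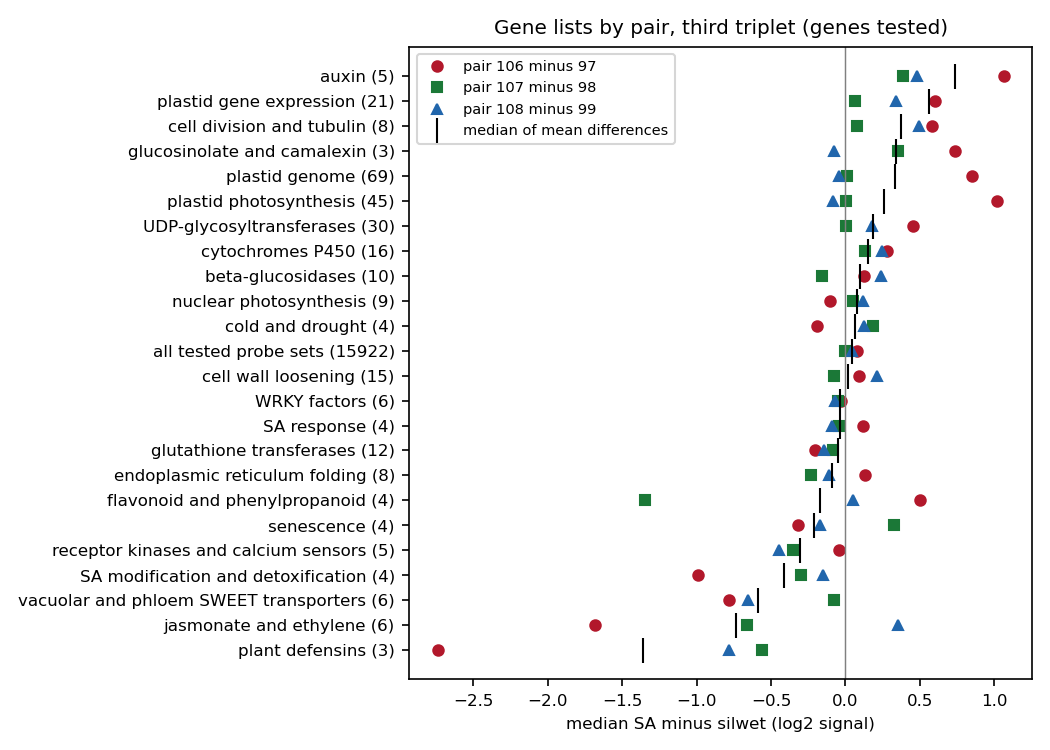
Median SA minus silwet difference in log2 signal (horizontal axis) of each gene list with at least 3 tested genes (rows, with the number tested), for each pair (symbols) and for the mean difference (bars). Plant defensins lie at -2.74, -0.56 and -0.78 in the 3 pairs, and the plastid genome at 0.85, 0.01 and -0.04.

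Each triplet has its own SA and silwet arrays, so the difference of the third could be tested against that of the first, arrays 100 to 102 against 91 to 93, in the same model. The difference was lower in the third triplet for 716 probe sets and higher for 780, 1496 in all (9.4% of those tested, 4.5% lower and 4.9% higher). Of the 716, 513 had been called higher in the first triplet, which is 71.6% of the 716 and 74.6% of the 688 called higher there (4.32% of those tested), and 695 measured lower in the third. Of the 780, 451 had been called lower in the first triplet, 57.8% of the 780 and 67.0% of the 673 called lower there (4.23% of those tested). The first-triplet difference is a term of this contrast, so a call there favours passing here on the opposite side. These overlaps are therefore no independent support. Against the second triplet, 0 probe sets differed by limma at an adjusted p of 0.05, with a smallest adjusted p of 0.356 and 1736 at an unadjusted p under 0.05 (10.9%). SA array 100 of the first triplet had the lowest mean correlation of the series with the 17 others, 0.899, against 0.915 for array 97. It also had the lowest array median. No fit left out an array of the first triplet, so the part of array 100 in this contrast was not tested. The count of 1496 depended on single arrays of the third triplet. It was 485 without the pairs in the model. In that model it was 233 without array 97, 1859 without 98, 147 without 99, 111 without 106, 141 without 107 and 372 without 108. With the pairs kept it was 412 without arrays 106 and 97, 2470 without 107 and 98, and 323 without 108 and 99. Without both arrays 97 and 99 it was 1, in the model with no pairs, against 485.

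Several SA-related genes called higher in the first triplet were among the 716. GRX480 differed by 1.5 (SE 0.20) in the first triplet, -0.03 in the second and -1.14 in the third, and the third minus the first was -2.64 (SE 0.28, limma adjusted p = 0.0038). On the first triplet's arrays WRKY53 differed by 1.37, on the second's by 0.61 and on the third's by -0.56, and the third minus the first was -1.93 (SE 0.23, limma adjusted p = 0.0053). AT5G52810 had 1.64, -0.24 and -0.59, and the third minus the first was -2.24 (SE 0.30, limma adjusted p = 0.0058). UGT76B1 had 4.21, 1.82 and -0.10 in the 3 triplets, with -4.31 (SE 0.54, limma adjusted p = 0.0058) for the third minus the first. AT3G13610, which RefSeq also names F6'H1 and which makes the precursor of the coumarin scopoletin, had 3.16, 1.18 and -0.46. On the arrays of the third triplet it had 4.25, 3.89 and 5.32 after SA and 4.40, 4.32 and 6.12 after silwet, lower in each pair. AT3G28510 and AT3G28540 measured higher in all 3 triplets, at 6.05, 0.79 and 2.26 and at 1.51, 0.42 and 0.49, and the third minus the first did not pass, with limma adjusted p of 0.055 and 0.12. Genes called lower in the first triplet are represented by AT1G13650, at -3.89, 0.20 and 0.43, and by BZIP61, a transcription factor, at -3.30, 0.48 and 0.25.

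**Figure D4:**
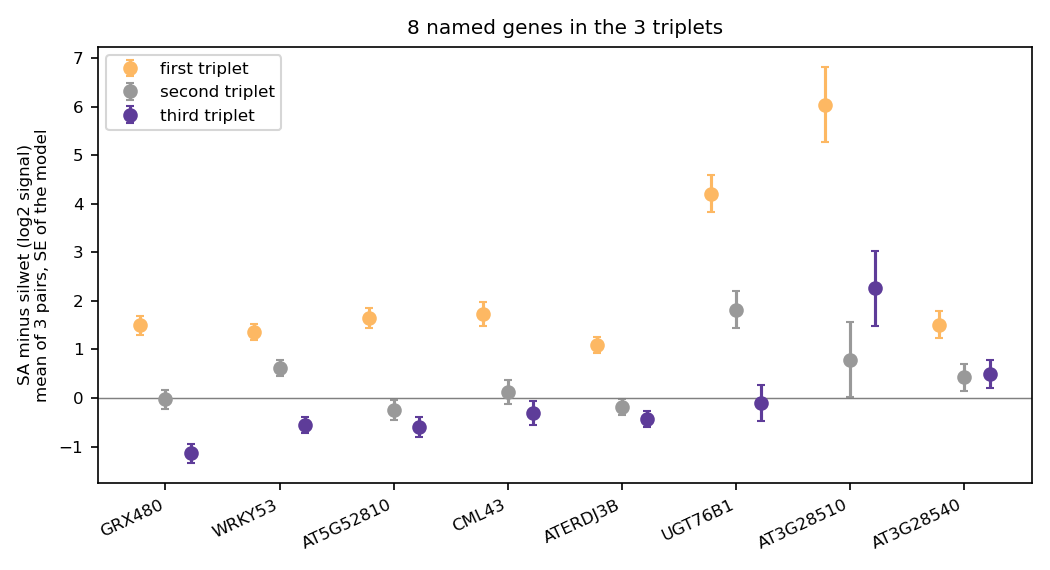
SA minus silwet difference in log2 signal (vertical axis; points are means of 3 pairs, bars the SE of the model) of 6 SA-related genes, the calcium sensor CML43 and the co-chaperone ATERDJ3B (horizontal axis) in the first, the second and the third triplet. GRX480, WRKY53, AT5G52810, CML43 and ATERDJ3B lie above 0 in the first triplet and below 0 in the third, and AT3G28510 and AT3G28540 lie above 0 in all of them.

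Taking every probe set called in the first triplet, most had the opposite sign in the third. Of the 688 called higher there, 561 (81.5%) measured lower in the third triplet and 127 (18.5%) higher, with a median difference of -0.29. Of the 673 called lower, 540 (80.2%) measured higher and 133 (19.8%) lower, with a median of 0.25. Over all tested probe sets 54.5% measured higher and 45.5% lower, with a median of 0.04. The medians of the genes called higher were -0.37, -0.23 and -0.24 in the pairs of arrays 97, 98 and 99, and those of the genes called lower were 0.35, 0.15 and 0.24. Without array 97 they were -0.29 and 0.24, and without arrays 97 and 99 they were -0.20 and 0.12. The sizes were small beside the first triplet, where the medians were 0.94 and -0.95. In the third triplet 29.8% of those called higher in the first measured lower at an unadjusted p under 0.05 and 1.16% higher, against 5.72% and 8.68% of all probe sets, and of those called lower 26.9% measured higher and 1.63% lower. In the second triplet the medians were -0.05 and 0.02. No fit left out an array of the first triplet, whose SA array 100 had the lowest mean correlation of the series, 0.899. Spearman's rho between locus length and difference was -0.447 in the pair of array 100, and 0.068 and 0.153 in the others of its triplet. In the third triplet it was 0.543, -0.064 and 0.422 in the pairs of arrays 97, 98 and 99. The part of array 100 in these opposite signs was not tested.

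The direction was also seen within classes of locus length. In the shortest class, 91.2% of the 91 genes called higher in the first triplet measured lower in the third, against 76.0% of all named genes of that class. For the longest class, 63.6% of 22 genes did, against 16.0% of all. Of those called lower in the first triplet, 60.9% of 46 genes in the shortest class measured higher in the third, against 24.0% of all in that class, and 93.0% of 57 in the longest, against 84.0% of all. In the pair of array 98, the medians of the called-higher genes ran from -0.25 to -0.19 over the 5 classes and those of the called-lower genes from 0.12 to 0.23. The genes of a class are not independent replicates, and the part of length in these signs was not tested.

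**Figure D5:**
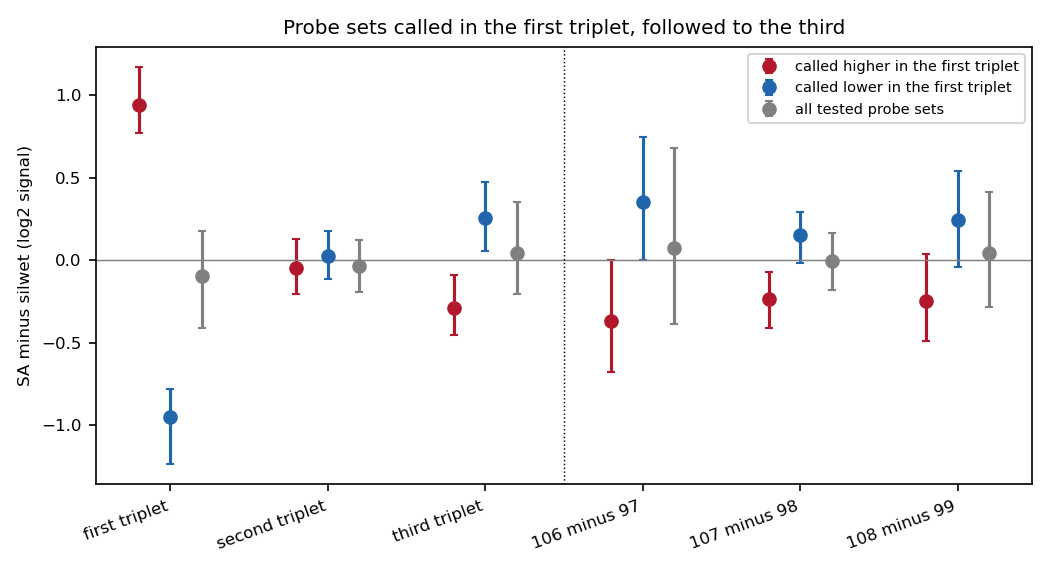
SA minus silwet difference in log2 signal (vertical axis; points are medians, bars the quartiles over probe sets) of 688 probe sets called higher and 673 called lower in the first triplet and of all 15922 tested, in each triplet and in each pair of the third (horizontal axis). The medians lie at 0.94 and -0.95 in the first triplet and at -0.29 and 0.25 in the third, on the same side of 0 in all 3 of its pairs.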

How the data were processed

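Biotin-labelled total RNA was measured on ATH1 arrays. The authors deposited linear intensity values of 22810 probe sets for each array. The submitters' processing notes name MAS5 alone, and its version and the harvest times are not given in the sources used here. Precision is limited by the number of arrays.

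Values were taken as log2. The 64 controls and the lowest 30% of the other 22746 probe sets by mean log2 signal over 18 arrays (6824) were left out, which left 15922. Gene names came from the platform annotation and the RefSeq table of TAIR10.1: 13513 probe sets had 1 gene, 503 several, and 8730 are not named here, and 13436 of the 13513 matched RefSeq. No sequences are shown. Of the tested probe sets 8743 had 1 gene. In lists each gene was read from its brightest probe set.

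limma 3.58.1 in R 4.3.3 fitted all 18 arrays with 9 pairs as blocks, 1 SA effect for each triplet and a trended prior variance. P-values were adjusted by Benjamini-Hochberg over the 15922 probe sets, with a threshold of 0.05. The other triplets thus share the estimate of the spread (6 residual and 4.47 prior degrees of freedom). Deviations from group means correlated at 0.216 to 0.481 between same-numbered arrays of a triplet and at -0.377 to 0.113 between others. Deviations within a group cancel out, so positive values of the first kind force negative ones among the others. Same-numbered arrays thus shared deviations, and the labels do not say what they have in common. Fits without array 97 have no pairs, so that array 106 stays in. The test was checked on simulated data first. Other steps used Python 3.11.15, pandas 2.3.3 and scipy 1.17.1.

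Named genes were the 12 highest and 12 lowest called differences; as none was called, each direction was filled from genes with an unadjusted p under 0.05, one sign in all 3 pairs and a mean, in 1 treatment or both, at or above 4.70 log2 units, the lowest array median; the members of each list with the smallest p, at most 4 and not all of them printed; and a fixed list of SA and jasmonate markers. The genes with the largest first-triplet differences and the family lists (plastid, glycosyltransferase, P450, glutathione transferase, defensin, WRKY, wall loosening and glucosidase genes) were added after the values were available. Members and lists were chosen with earlier results of these data known.

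Alternatives were the fit without pairs, the 6 arrays alone, other filters, a floor, quantile normalization, array weights, no trend, a robust prior, and each array or pair of the third triplet left out. The fits without arrays 97 and 99, and array weights without pairs, were chosen after seeing the data.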

Additional observations from a re-analysis of the deposited data

Results flagged for a closer look

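A difference between triplets was found by the model's own test of that difference, the limma contrast of the third minus the first triplet, at an adjusted p under 0.05. It was passed by 716 probe sets with a lower and 780 with a higher SA minus silwet difference in the third triplet than in the first. The median of this contrast over all tested probe sets was 0.15, and -0.01 after quantile normalization, so values below are to be read against that shift.

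Of 114 named genes, 21 passed on the lower side and 19 on the higher, in log2 units of the third minus the first triplet. Of these genes, 11 and 8 had been named for their size in the first or in the third triplet, which favours passing here. List members were named by the smallest p of the third-triplet difference, which is a term of this contrast too. None of these counts is therefore independent support. Over all tested probe sets 4.5% passed on the lower side and 4.9% on the higher. The SA-related ones were GRX480 (-2.64), WRKY53 (-1.93), AT5G52810 (-2.24) and UGT76B1 (-4.31). AT3G13610, of coumarin synthesis, had -3.62. Genes of protein folding and heat stress were ATERDJ3B (-1.52), AT1G29310 (-0.84), DER1 (-1.14) and AT2G29500 (-1.49). The calcium sensors CML37 (-1.82) and CML43 (-2.04), the glutathione transferase GSTU27 (-1.14), the cytochrome P450 CYP71B23 (-1.46) and the wall enzyme XTH29 (-2.12) belonged here too. The remaining loci were AT3G49160 (-2.12), AT1G19380 (-1.30), AT1G22890 (-2.0), AT5G60800 (-1.49), AT3G47050 (-3.45), AT5G44570 (-2.53) and AT4G19370 (-2.76).

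On the higher side were the cold-response genes COR47 (1.45) and COR15B (1.1), the glucosinolate synthesis genes BCAT4 (1.07) and AOP3 (2.23), the beta-glucosidase BGLU44 (1.1), the tubulins TUB5 (1.54), TUB1 (1.16) and TUB6 (1.61), the glycosyltransferases UGT88A1 (2.0) and UGT76C1 (1.0), and EXPB3 (1.83), a beta-expansin that loosens walls. AT4G00040 (3.55), AT5G48360 (3.32), AT1G01320 (2.99), AT4G28080 (3.11), AT1G13650 (4.31), the transcription factor BZIP61 (3.55), AT5G05840 (3.16) and AT5G62360 (2.72) completed them. Arrays 97 and 99 were low for AT4G00040, AT5G48360, AT1G01320 and AT4G28080, and the part of those arrays in these values was not tested. SA array 100 of the first triplet was low for UGT88A1, at 5.29 against 7.41 and 7.45 on arrays 101 and 102. For TUB6 it had 6.69 against 7.80 and 7.49. For TUB1 and COR47 it was the highest of these SA arrays instead, and its part was not tested either. Groups of 3 arrays were too small for a test of single outlying arrays.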

How the results depend on the processing

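Of the 3 counts of called probe sets, that of the third triplet stayed at 0, and the third minus second count at 0, under 9 of the alternatives that kept all arrays, namely the fit without the replicate block, the 6 arrays alone with and without pairs, other filters, the floor, quantile normalization, no trend and the robust prior, as far as each could be fitted. Leaving out pairs gave 0 to 1 calls for the third triplet, 323 to 2470 for the third minus the first and 0 for the third minus the second. Leaving out single arrays without the block gave 1 call for the third triplet without array 98 and 0 otherwise, and for the third minus the first 233 without array 97, 147 without 99, 111 without 106, 141 without 107 and 372 without 108. Without the replicate block the third minus first count was 485, and without arrays 97 and 99 it was 1. Array weights gave 4993 calls for the third triplet (2986 higher), 4774 for the third minus the first and 2196 for the third minus the second, and 5380, 4530 and 3438 without the block; the weight was 3.92 for the pair of array 99, 0.509 for that of 98 and 0.421 for that of 97, and the cause of these calls was not tested. The shares of first-triplet calls with the opposite sign ran from 76.6% to 86.3% (called higher) and from 77.5% to 87.8% (called lower) over the fits that left out 1 array or pair of the third triplet, and were lowest with array weights, at 62.6% and 60.3%.

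List medians moved by more than the SD of the pair medians as follows. Leaving out the lowest 50%, which removes members, gave -0.85 for SA response, -0.23 for glutathione transferases, -0.14 for WRKY factors and 0.19 for wall loosening. Quantile normalization gave -0.18 for SA response, -0.0098 for cytochromes P450 and -0.19 for WRKY factors. Array weights gave -0.52 for receptor kinases and calcium sensors, 0.24 for cytochromes P450, -0.12 for WRKY factors and 0.19 for wall loosening, and without the block -0.15 for SA response, 0.19 for auxin, -0.80 for receptor kinases and calcium sensors, 1.13 for plastid gene expression and 0.26 for cytochromes P450. Without arrays 97 and 99 the medians were 0.29 for auxin, 0.56 for cold and drought, 0.27 for senescence, 0.013 for cell division and tubulin, 0.0093 for SWEET transporters, -0.29 for the plastid genome, -0.32 for plastid gene expression, -0.079 for UDP-glycosyltransferases and -0.19 for WRKY factors. Leaving out a pair, medians ran from -0.40 to -0.088 for receptor kinases and calcium sensors, 0.23 to 0.81 for plastid gene expression, 0.045 to 0.29 for cytochromes P450, -0.11 to -0.050 for glutathione transferases, -0.21 to -0.023 for WRKY factors and 0.033 to 0.30 for wall loosening. Leaving out single arrays, they were 0.37 without array 97 and -0.14 without 98 for cold and drought, and -0.58 without 97 and 0.058 without 99 for receptor kinases and calcium sensors. For plastid gene expression they were 0.17 without 97, 1.09 without 98, 0.19 without 99 and 0.19 without 107, and for cytochromes P450 0.26 without 97 and 0.29 without 98. For glutathione transferases they were -0.12 without 98, -0.16 without 99 and -0.12 without 106, for wall loosening 0.17 without 106, and for WRKY factors -0.098 without 97, -0.13 without 98, 0.021 without 99, 0.064 without 106 and -0.11 without 107.

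The 78 named genes counted here had an unadjusted p under 0.05, were on the list of hormone marker genes or chosen by size. With array weights 56 of them were called, and 52 without the block, against 0 with equal weights. Over all 15922 probe sets tested, array weights called 4993, and 5380 without the block. The choice by p and size favours such calls. None of the 78 turned its sign without the replicate block, with the 6 arrays alone, without a filter, without a trend or with the robust prior. Signs turned for UGT76B1 with the floor (0.011) and AT3G47050 with quantile normalization (-0.023). With array weights they turned for UGT76B1 (0.072), THI2.1 (0.61), AT3G47050 (-0.014) and AT5G05840 (-0.23), and without the block for THI2.1 (0.89), CYP71B22 (0.13), AT3G47050 (-0.043), NRT2.5 (-0.082), AT5G44570 (-0.80), MMP (-0.21) and AT5G05840 (-0.17). Without arrays 97 and 99, a fit of 3 SA arrays against 1 silwet array with no pairs, whose lone array is assumed to vary like the others, they turned for 22, though the pair of array 98 itself kept the sign for rps15 (0.39), rpl14 (0.067), psbB (0.070) and SWEET17 (-0.28): GI (-0.0069), AT2G29500 (0.27), SWEET17 (6.95e-05), SWEET1 (0.063), ycf3 (-0.57), rpl14 (-0.76), rps15 (-1.06), psbB (-0.70), psaB (-0.13), atpF (-0.53), rpl16 (-0.40), rpl22 (-0.32), BGLU33 (-0.23), psbA (-0.39), AT3G06210 (-0.17), SIZ1 (-0.19), AT4G17140 (-0.093), AT5G15780 (-0.20), AT4G28080 (-0.21), AT3G47050 (-0.35), AT3G13610 (0.17) and NRT2.5 (-0.10). Leaving out a pair, differences ran from -0.27 to 0.18 for UGT76B1, -0.0062 to 0.12 for AT3G47050 and -0.20 to 1.67 for NRT2.5. Leaving out single arrays turned UGT76B1 (0.64 without 99, 0.91 without 106), rps15 (-0.044 without 107), AT3G47050 (-0.36 without 97, -0.12 without 107, -0.099 without 108), AT3G13610 (0.13 without 99), NRT2.5 (-0.090 without 97) and AT5G44570 (-0.26 without 97, -0.087 without 98, -0.45 without 108), and no other named gene. Dim probe sets scatter most on this scale, and 3 arrays a treatment limit every value.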
